A study of Homo sapiens with 4 samples.

Results

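Transcripts of 31 genes of cholesterol synthesis, uptake and sterol control were followed in A2780 cells, an established human ovarian cancer cell line, after treatment with wogonin or with its vehicle. The genes were taken by symbol from the deposited tables and are 31 of the 57773 genes listed there. They are 20 enzymes of the pathway from acetyl-CoA to cholesterol and 11 genes of SREBP control, sterol transport, esterification and LXR signalling. The treated group was labelled wogonin 3 and 4. Its cells, with WT as the labelled genotype, received wogonin, a plant flavone, at 10 ug/mL for 48 h. The vehicle group was labelled DMSO 1 and 2, also WT, with no exposure time of its own in the labels. All cells were grown in RPMI with serum, and RNA sequencing was the only readout. The stated aim of the study was to learn whether wogonin limits ovarian cancer growth through DNA demethylation. No label names separate cultures within a group. The p-values below then reflect only how far the 2 libraries of each group lie apart, with that spread shared across genes. This spread could be technical. With 2 libraries in each of 2 groups, 0.333 is the smallest 2-sided p an exact permutation test can reach.

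Cells make cholesterol from acetyl-CoA in the mevalonate pathway, which also supplies isoprenoids for prenylated proteins, dolichol and coenzyme Q. When sterols are low in the endoplasmic reticulum, SCAP carries the precursor of the transcription factor SREBP-2 to the Golgi, where proteases release it to switch on the genes of synthesis. When sterols are high, INSIG proteins hold SCAP back, and oxysterols activate LXR receptors, which favour export over uptake. Proliferating cancer cells draw on this pathway for membranes.

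In these tables each library held between 11005921 and 11839562 exon reads, and introns took 5.26 to 7.96% of the reads of genes with exons, the highest share being that of wogonin 3. Genes of the mitochondrial chromosome held 1.67 and 3.03% in wogonin 3 and 4, against 1.65 and 1.45% in DMSO 1 and 2. The label of ovarian adenocarcinoma was not borne out by the epithelial and ovarian markers examined. The identity of the cells was not tested. Of 6 epithelial markers none passed 9 reads in any library, with a summed level of 1.09 and 0.177 CPM (exon reads scaled to a library of 1000000) in wogonin 3 and 4, against 1.13 and 1.35 CPM in DMSO 1 and 2. PAX8, WT1, MUC16 and SOX17 had at most 2 reads in any library. The 5 fibroblast genes summed to 600 and 584 CPM in wogonin 3 and 4, against 800 and 746 CPM in DMSO 1 and 2. COL3A1 held most of these sums. COL1A1 had at most 152 reads in any library, DCN and LUM at most 23, and COL1A2 at most 2. Endothelial VWF and CDH5 had no reads. Of 4 leukocyte genes PTPRC and CD3E had none, CD14 had at most 3, and CD68 had 226 and 165 reads in wogonin 3 and 4, against 202 and 254 in DMSO 1 and 2. The part of these levels in the results was not tested. In bulk libraries fewer cells of a type and less RNA per cell cannot be told apart.

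Most enzymes of cholesterol synthesis were higher in the wogonin libraries. Of the 31 genes, all of which passed the filter on low counts, 23 were higher, 3 were lower and 5 did not pass a Benjamini-Hochberg adjusted p of 0.05 in edgeR's quasi-likelihood test over all 13449 genes tested. That is 74.2% higher and 9.68% lower, where 32.3% of all genes tested were higher, 31.5% were lower and 63.8% were called in either direction. Among the 20 synthesis enzymes 18 were higher, TM7SF2 was lower and PMVK did not pass. The median log2 fold change of the 31 genes, wogonin over DMSO, was 0.63, against a median of -0.00066 over all genes tested. The change was at least 1 log2 unit upward in 7 genes and downward in 1, STARD4, where 6.31% and 9.94% of all genes went that far. The groups did not overlap in scaled CPM in 30 of the 31 genes, SOAT1 being the exception, and they did not overlap in 81.9% of all genes tested.

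**Figure D1:**
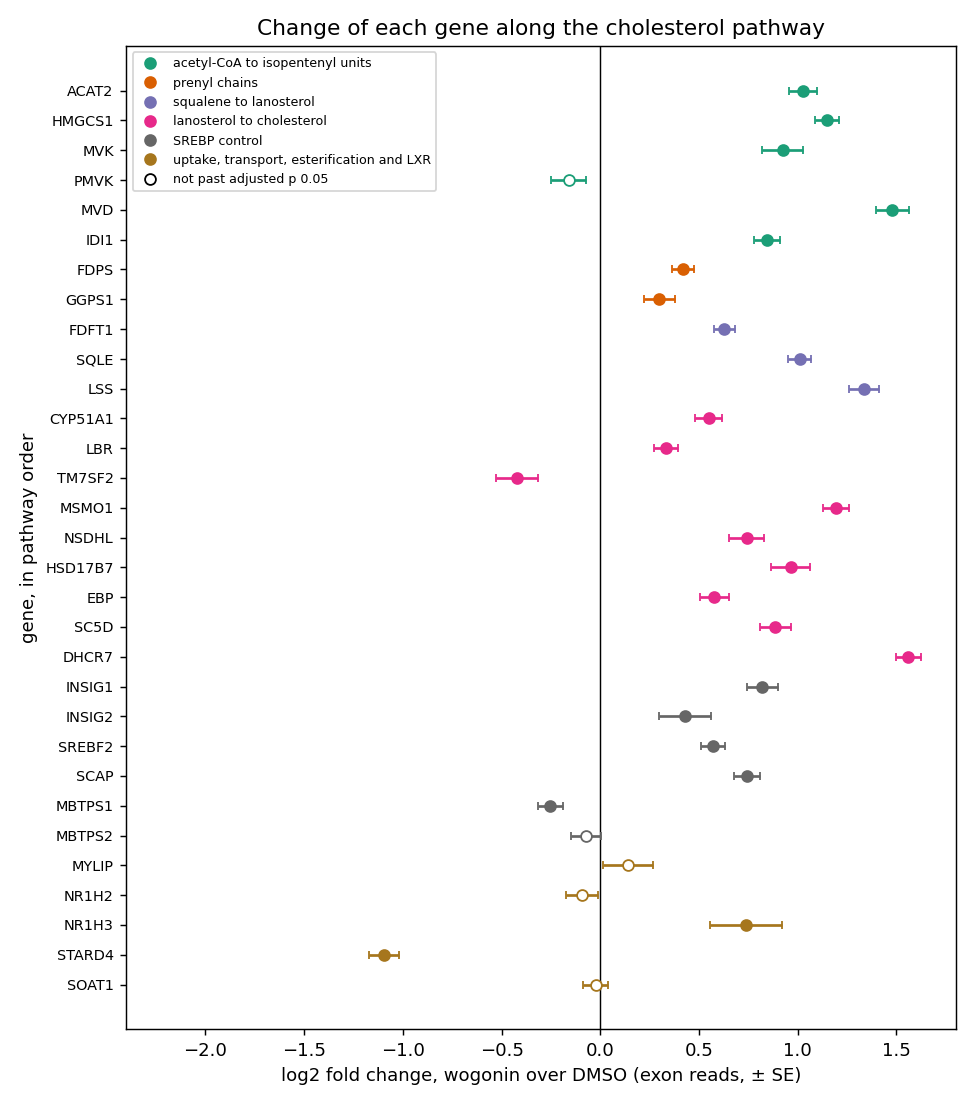
Log2 fold change in exon reads of each gene, wogonin over DMSO, with the standard error of the edgeR fit, in the order of the pathway; colours mark the step and open circles the genes that did not pass an adjusted p of 0.05. The points run from -1.10 for STARD4 to 1.56 for DHCR7, and TM7SF2 and PMVK are the 2 synthesis enzymes left of 0.

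The level of the enzymes as a whole can be read from the summed TPM, the authors' deposited values, in which reads are divided by exon length and scaled to 1000000 per library. The 20 synthesis enzymes summed to 3953 and 4029 TPM in wogonin 3 and 4, against 2482 and 2476 TPM in DMSO 1 and 2, a ratio of 1.61. The treated libraries were both higher and the pairs lay close together. Fold changes in parentheses come from exon reads with TMM scaling, not from TPM, and the median log2 ratio of TPM over the genes tested was -0.14, so TPM sets genes lower in wogonin than the fit does. The 6 enzymes up to isopentenyl units summed to 1205 ± 30.2 TPM in wogonin and 704 ± 3.42 TPM in DMSO (SD, n = 2 each). The 9 enzymes after lanosterol held the largest sum, 1650 ± 23.3 TPM in wogonin and 981 ± 7.64 TPM in DMSO. The gap was narrower for the prenyl chain enzymes FDPS and GGPS1, at 491 ± 1.70 TPM in wogonin and 409 ± 1.48 TPM in DMSO. The 6 genes of SREBP control summed to 616 ± 7.30 TPM in wogonin and 479 ± 24.8 TPM in DMSO. The remaining 5 genes went the other way, with 286 ± 2.22 TPM in wogonin and 471 ± 2.64 TPM in DMSO, and STARD4 carried most of that difference.

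**Figure D2:**
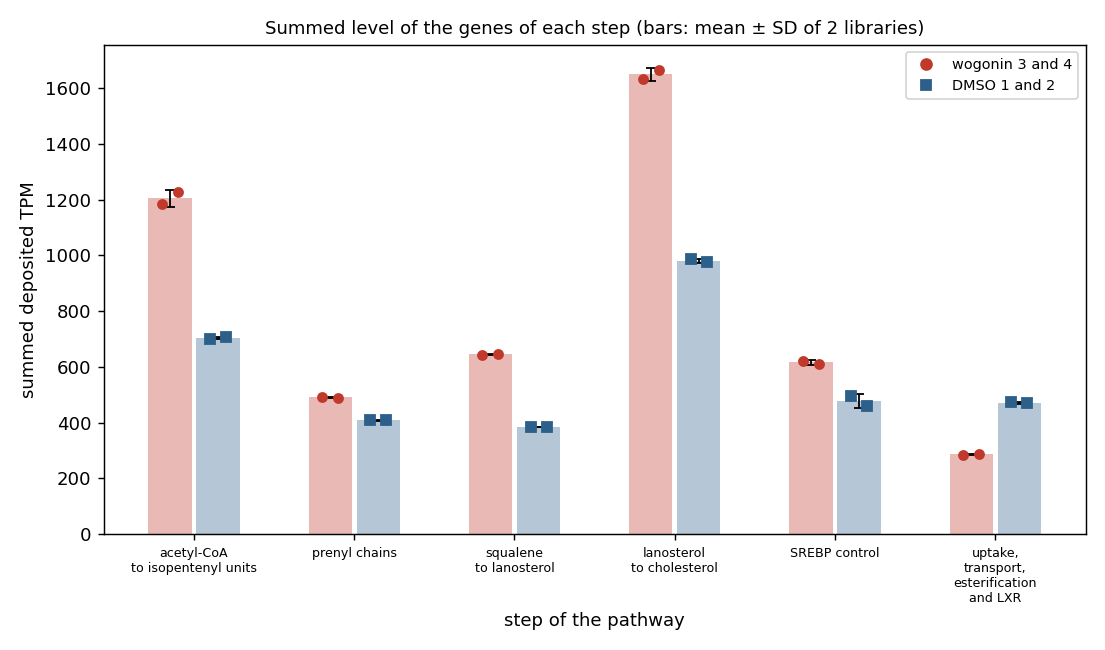
Summed deposited TPM of the genes of each step, with points for the libraries and bars for the mean ± SD of the 2 libraries of a group; wogonin stands left of DMSO. Wogonin is above DMSO in every step but the last, where STARD4 is counted.

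The opening steps turn acetyl-CoA into the isopentenyl unit. ACAT2, the cytosolic thiolase that condenses acetyl-CoA, stood at 249.9 and 277 TPM in wogonin 3 and 4, against 142 and 144 TPM in DMSO 1 and 2 (log2 fold change 1.03 ± 0.071, edgeR adjusted p = 1.4e-08; ± is the standard error throughout). HMGCS1, which makes HMG-CoA and is a classic SREBP-2 target, stood at 353 and 367 TPM in wogonin 3 and 4, against 180.1 and 178 TPM in DMSO 1 and 2 (log2 fold change 1.15 ± 0.060, edgeR adjusted p = 1.9e-10). The fold was 2.04 for ACAT2 and 2.22 for HMGCS1, with no overlap between groups. Parts of their reads also matched other places, since 87.3% of ACAT2 and 62.1% of HMGCS1 exon reads were uniquely placed, and their log2 fold changes in those reads alone were 1.05 and 1.16. ACAT2 also overlaps TCP1 and SOD2 on the opposite strand. The strand setting is not given in the sources used here, so reads from both strands cannot be told apart. In reads across exon junctions, an alternative chosen after seeing the data, the ACAT2 value was 1.02.

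The mevalonate kinases and the decarboxylase did not move together. MVK, which phosphorylates mevalonate, was low among the enzymes, at 26.7 and 28.6 TPM in wogonin 3 and 4, against 15.5 and 16.6 TPM in DMSO 1 and 2 (log2 fold change 0.93 ± 0.10, edgeR adjusted p = 1.0e-06). It overlaps MMAB on the opposite strand, which held 594 and 680 exon reads in wogonin 3 and 4, against 368 and 363 in DMSO 1 and 2. PMVK, the next kinase, had 119 and 115 TPM in wogonin 3 and 4, against 139 and 150.1 TPM in DMSO 1 and 2 and did not pass (log2 fold change -0.16 ± 0.089, edgeR adjusted p = 0.13). Both wogonin libraries lay below both DMSO libraries. Its value was called lower when libraries were scaled by their totals or by upper-quartile factors (-0.25 in both), in total gene reads (-0.25), in uniquely placed gene reads (-0.24) and in junction reads (-0.26, edgeR adjusted p = 0.033). The median of all genes stood at -0.09 in those 2 scalings. MVD, which decarboxylates mevalonate diphosphate, had the largest rise of this stretch, at 215 and 206 TPM in wogonin 3 and 4, against 90.7 and 75.6 TPM in DMSO 1 and 2 (log2 fold change 1.48 ± 0.082, edgeR adjusted p = 1.2e-08). IDI1, the isomerase of isopentenyl diphosphate, had 219.8 and 232 TPM in wogonin 3 and 4, against 135 and 142 TPM in DMSO 1 and 2 (log2 fold change 0.85 ± 0.067, edgeR adjusted p = 1.7e-08). Few of its exon reads were uniquely placed, 17.5%, and in those its log2 fold change was 0.90.

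The isopentenyl units are then joined into chains. FDPS, farnesyl diphosphate synthase, was the most abundant of these enzymes per length in DMSO, at 434 and 429.6 TPM in wogonin 3 and 4, against 355 and 356 TPM in DMSO 1 and 2 (log2 fold change 0.42 ± 0.055, edgeR adjusted p = 5.0e-06). GGPS1, which makes geranylgeranyl diphosphate for protein prenylation, had 58.7 and 60.4 TPM in wogonin 3 and 4, against 52.9 and 53.9 TPM in DMSO 1 and 2 (log2 fold change 0.30 ± 0.078, edgeR adjusted p = 0.0033). Both rose less than the enzymes on either side of them in the order of the pathway. The GGPS1 call was lost when intron reads were added to the count, at 0.18 for all reads and 0.20 for uniquely placed ones (edgeR adjusted p = 0.074 and 0.056). GGPS1 overlaps ARID4B on the opposite strand, which had 617 and 717 exon reads in wogonin 3 and 4, against 825 and 948 in DMSO 1 and 2.

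The pathway commits to sterols at squalene. FDFT1, squalene synthase, stood at 275 and 265 TPM in wogonin 3 and 4, against 192 and 193 TPM in DMSO 1 and 2 (log2 fold change 0.63 ± 0.055, edgeR adjusted p = 5.2e-08). SQLE, the epoxidase and a known control point of the pathway, had 254 and 255 TPM in wogonin 3 and 4, against 139 and 139 TPM in DMSO 1 and 2 (log2 fold change 1.01 ± 0.060, edgeR adjusted p = 7.2e-10). LSS, which closes the rings to give lanosterol, had 115 and 126 TPM in wogonin 3 and 4, against 54.6 and 51.1 TPM in DMSO 1 and 2 (log2 fold change 1.34 ± 0.076, edgeR adjusted p = 2.2e-09). In fold the rises were 1.55 for FDFT1, 2.01 for SQLE and 2.53 for LSS, with all treated libraries above both DMSO libraries. Differences between genes were not tested.

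From lanosterol to cholesterol, 8 of 9 enzymes were higher. CYP51A1, the lanosterol demethylase, had 300.2 and 330.1 TPM in wogonin 3 and 4, against 232 and 244 TPM in DMSO 1 and 2 (log2 fold change 0.55 ± 0.068, edgeR adjusted p = 5.8e-06). Only 1.48% of its exon reads were uniquely placed, so this value rests on reads that also match elsewhere. In the unique reads its log2 fold change was 0.19 and missed the threshold (edgeR adjusted p = 0.48). In junction reads it was 0.54, with 1281 and 1455 reads in wogonin 3 and 4, against 998 and 1098 in DMSO 1 and 2. These are total junction reads, not uniquely placed ones. Uniquely placed exon reads numbered only 44 and 50 in wogonin 3 and 4, against 48 and 44 in DMSO 1 and 2. Most of the junction reads therefore also match elsewhere, and their value has the same limit.

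The following step, reduction of a ring double bond, has a pair of enzymes, and they changed in opposite directions. LBR, which is also the lamin B receptor of the inner nuclear membrane, rose slightly, at 142 and 129.9 TPM in wogonin 3 and 4, against 121 and 117 TPM in DMSO 1 and 2 (log2 fold change 0.33 ± 0.062, edgeR adjusted p = 1.8e-04). TM7SF2, the dedicated reductase, fell, at 31.4 and 36.3 TPM in wogonin 3 and 4, against 52.3 and 48.0 TPM in DMSO 1 and 2 (log2 fold change -0.42 ± 0.11, edgeR adjusted p = 0.0028). TM7SF2 overlaps VPS51 on the same strand, which had 540 and 505 exon reads in wogonin 3 and 4, against 777 and 665 in DMSO 1 and 2. In junction reads TM7SF2 fell by 0.59 on the log2 scale (edgeR adjusted p = 2.3e-04). The call was lost without DMSO 1 (-0.36, edgeR adjusted p = 0.056) and without wogonin 3 (-0.28, edgeR adjusted p = 0.052). The part of VPS51 in the result was not tested.

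The C4 demethylation enzymes rose together. MSMO1, the methyl oxidase, had 293 and 304 TPM in wogonin 3 and 4, against 145 and 142 TPM in DMSO 1 and 2 (log2 fold change 1.20 ± 0.066, edgeR adjusted p = 3.3e-10). NSDHL, the decarboxylating dehydrogenase, had 106 and 95.5 TPM in wogonin 3 and 4, against 65.7 and 66.7 TPM in DMSO 1 and 2 (log2 fold change 0.74 ± 0.090, edgeR adjusted p = 2.2e-06). HSD17B7, the ketoreductase that completes the cycle, was less abundant, at 42.8 and 43.0 TPM in wogonin 3 and 4, against 22.8 and 25.6 TPM in DMSO 1 and 2 (log2 fold change 0.97 ± 0.098, edgeR adjusted p = 3.2e-07). In each of them both treated libraries lay above both DMSO libraries. EBP, the isomerase that moves the sterol double bond, stood at 148 and 146 TPM in wogonin 3 and 4, against 107 and 110.0 TPM in DMSO 1 and 2 (log2 fold change 0.58 ± 0.074, edgeR adjusted p = 3.9e-06). SC5D, the desaturase that follows, had 71.0 and 72.2 TPM in wogonin 3 and 4, against 44.3 and 41.0 TPM in DMSO 1 and 2 (log2 fold change 0.89 ± 0.079, edgeR adjusted p = 6.6e-08). DHCR7 (ENSG00000172893, chr11:71139239-71163914 on the minus strand in the files' build, GRCh37), the reductase that yields cholesterol in one branch, had the largest rise of the 31 genes, at 499 and 509 TPM in wogonin 3 and 4, against 196 and 181 TPM in DMSO 1 and 2 (log2 fold change 1.56 ± 0.063, edgeR adjusted p = 1.5e-11). Its fold of 2.95 was above that of 97.0% of all genes tested, and it was the most abundant of the 31 genes per length in the treated cells.

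**Figure D3:**
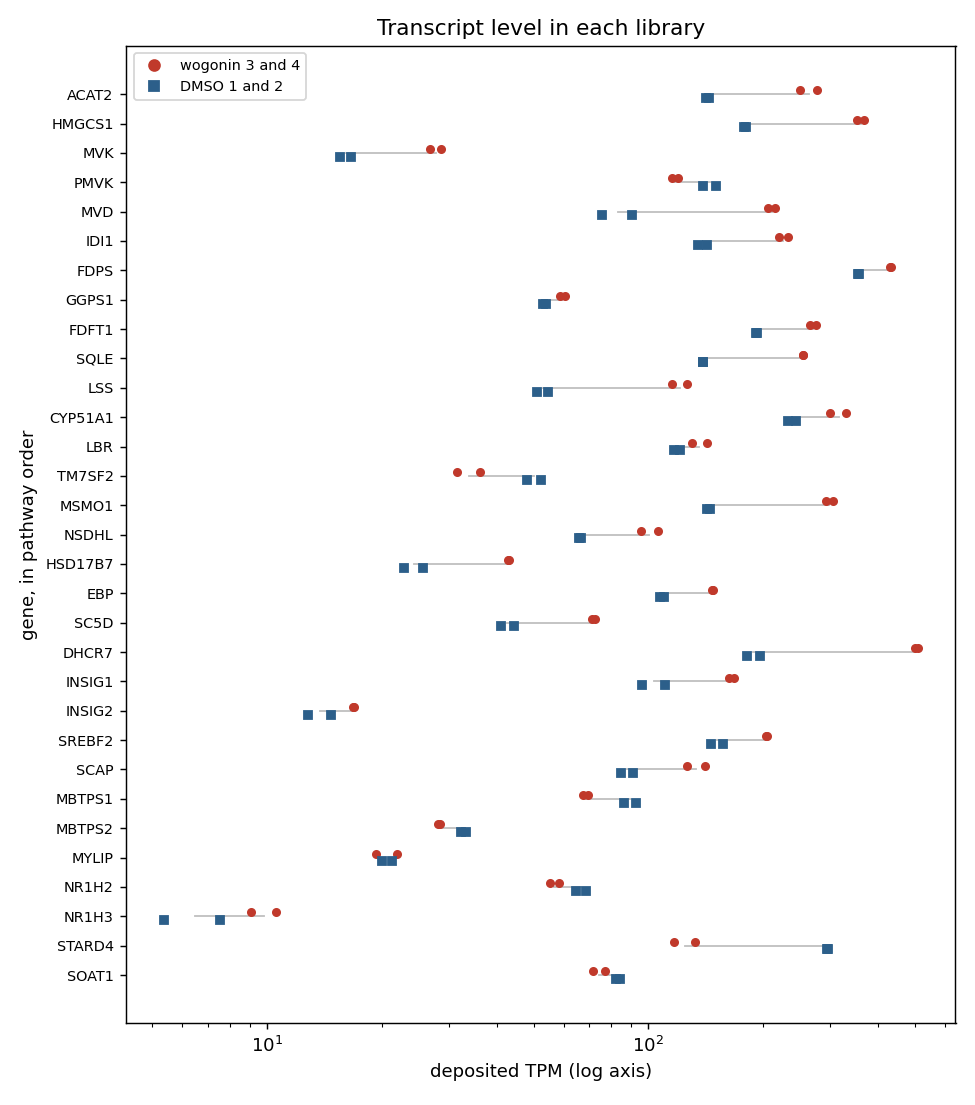
Deposited TPM of each gene in each library on a log axis, in the order of the pathway; circles are wogonin 3 and 4, squares DMSO 1 and 2, and a grey line joins the group means. DHCR7 reaches 499 and 509 TPM in the treated libraries, and STARD4 is the gene with the widest gap in the other direction.

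Genes that set SREBP-2 activity were higher in part. SREBF2 (ENSG00000198911, chr22:42229109-42303312 on the plus strand in GRCh37), which encodes SREBP-2, stood at 203 and 205 TPM in wogonin 3 and 4, against 157 and 146 TPM in DMSO 1 and 2 (log2 fold change 0.57 ± 0.061, edgeR adjusted p = 5.0e-07). SCAP, its escort, had 141 and 126 TPM in wogonin 3 and 4, against 91.2 and 84.6 TPM in DMSO 1 and 2 (log2 fold change 0.74 ± 0.065, edgeR adjusted p = 6.1e-08). INSIG1, a sterol-sensing anchor and itself an SREBP-2 target, had 163 and 167 TPM in wogonin 3 and 4, against 110.2 and 96.1 TPM in DMSO 1 and 2 (log2 fold change 0.82 ± 0.079, edgeR adjusted p = 3.6e-07). All 3 rose, and INSIG1 the most. INSIG2, the isoform that is less dependent on SREBP, was scarce, at 16.8 and 16.9 TPM in wogonin 3 and 4, against 12.8 and 14.7 TPM in DMSO 1 and 2 (log2 fold change 0.43 ± 0.13, edgeR adjusted p = 0.0087). Its call was lost with DESeq2 (adjusted p = 0.098), in junction reads (0.62, edgeR adjusted p = 0.078) and without DMSO 1 (0.33, edgeR adjusted p = 0.096). The proteases that release SREBP-2 did not rise. MBTPS1, the site-1 protease, fell, at 69.3 and 67.2 TPM in wogonin 3 and 4, against 92.9 and 86.3 TPM in DMSO 1 and 2 (log2 fold change -0.25 ± 0.063, edgeR adjusted p = 0.0021). MBTPS2, the site-2 protease, had 28.5 and 28.1 TPM in wogonin 3 and 4, against 32.3 and 33.2 TPM in DMSO 1 and 2 and did not pass (log2 fold change -0.07 ± 0.076, edgeR adjusted p = 0.43). Transcript levels do not measure the cleavage of SREBP-2.

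Promoter sequences of 28 of the 31 genes were found in RefSeq (build GRCh38.p14, windows from 250 bases before to 50 after each start site). They were searched on both strands for the CCAAT box, which binds the SREBP partner NF-Y, for the sterol regulatory element TCACNCCAC and for the palindromic E-box TCACGTGA. The CCAAT box was present in 20 of the 28 genes (71.4%), and in 39.7% of all 27305 genes with a window. Among the enzymes it was present in 14 of 17. The sterol regulatory element was found in SREBF2 alone of the 28, and in 1.39% of all genes, and the palindromic E-box in INSIG1 alone, and in 1.18% of all genes. Other spellings of these sites were not searched. The 250 bases before the start site are shown, with these matches in capitals (CCAAT reads ATTGG on the other strand). They are given for SREBF2, with the sterol regulatory element, and for INSIG1, with the palindromic E-box. MVD and MSMO1 were added as enzymes with large rises and several CCAAT boxes, and STARD4 as a gene that fell. None of the 3 motifs overlaps another in these stretches.
SREBF2, chr22:41832855-41833104, plus strand: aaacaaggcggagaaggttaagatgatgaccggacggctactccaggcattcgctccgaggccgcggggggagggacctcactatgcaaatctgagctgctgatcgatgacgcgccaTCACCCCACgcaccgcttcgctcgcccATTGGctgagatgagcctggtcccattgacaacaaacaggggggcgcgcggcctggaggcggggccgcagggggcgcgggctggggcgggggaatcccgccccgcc
INSIG1, chr7:155297628-155297877, plus strand: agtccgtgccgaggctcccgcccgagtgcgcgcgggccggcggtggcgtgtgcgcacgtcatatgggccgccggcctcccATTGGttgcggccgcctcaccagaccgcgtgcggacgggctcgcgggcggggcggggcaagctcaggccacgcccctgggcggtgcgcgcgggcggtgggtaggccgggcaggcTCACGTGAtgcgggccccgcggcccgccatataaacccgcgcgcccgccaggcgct
MVD, chr16:88663092-88663341, minus strand: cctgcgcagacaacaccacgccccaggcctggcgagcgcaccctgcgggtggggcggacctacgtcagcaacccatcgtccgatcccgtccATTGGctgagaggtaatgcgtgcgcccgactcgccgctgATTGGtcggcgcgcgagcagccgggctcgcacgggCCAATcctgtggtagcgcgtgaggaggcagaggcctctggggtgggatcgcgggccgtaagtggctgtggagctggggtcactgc
MSMO1, chr4:165327419-165327668, plus strand: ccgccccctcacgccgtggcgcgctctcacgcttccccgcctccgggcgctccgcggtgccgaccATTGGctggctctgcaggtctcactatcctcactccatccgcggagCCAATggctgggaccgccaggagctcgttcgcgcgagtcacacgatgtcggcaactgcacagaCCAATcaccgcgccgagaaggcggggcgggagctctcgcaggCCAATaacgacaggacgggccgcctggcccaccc
STARD4, chr5:111512536-111512785, minus strand: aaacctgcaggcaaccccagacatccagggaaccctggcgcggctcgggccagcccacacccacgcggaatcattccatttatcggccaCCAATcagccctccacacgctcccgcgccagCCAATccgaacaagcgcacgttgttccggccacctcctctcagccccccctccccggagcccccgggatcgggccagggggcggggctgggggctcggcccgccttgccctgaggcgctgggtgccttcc

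In SREBF2 the sterol element begins 133 bases and the CCAAT box 106 bases before the start site. MSMO1 has 4 CCAAT boxes, MVD has 3 and STARD4 has 2, but MSMO1 and MVD were chosen for display in part by their boxes. While 20 of the 28 genes had a box, CYP51A1, LBR, SCAP and INSIG2, which rose, and MBTPS1, which fell, had none. The part of this motif in the changes was not tested. A match describes the letters of these windows and does not show binding.

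STARD4 (ENSG00000164211, chr5:110831731-110848288 on the minus strand in GRCh37) was lower in the treated cells. It carries cholesterol between membranes in the cytosol and is a known SREBP-2 target in mouse. It had 117 and 133 TPM in wogonin 3 and 4, against 294 and 295 TPM in DMSO 1 and 2 (log2 fold change -1.10 ± 0.075, edgeR adjusted p = 7.4e-08), with a level in DMSO that was 2.14-fold that in wogonin. In DMSO it was second to FDPS among the 31 genes per length. Its value was -0.97 without wogonin 3 and -1.24 without wogonin 4. The opposite-strand gene STARD4-AS1 had 62 and 79 exon reads in wogonin 3 and 4, against 93 and 85 in DMSO 1 and 2.

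Of the 5 genes of uptake, transport, esterification and LXR signalling, STARD4 was lower, NR1H3 was higher and 3 did not pass. MYLIP, a ubiquitin ligase that sends lipoprotein receptors to the lysosome and is an LXR target, had 22.0 and 19.3 TPM in wogonin 3 and 4, against 21.2 and 20.0 TPM in DMSO 1 and 2. These groups overlapped in TPM, and the test was not passed (log2 fold change 0.14 ± 0.13, edgeR adjusted p = 0.35). SOAT1, which esterifies cholesterol for storage, had 77.0 and 71.7 TPM in wogonin 3 and 4, against 84.1 and 82.3 TPM in DMSO 1 and 2 and did not pass either (log2 fold change -0.02 ± 0.063, edgeR adjusted p = 0.77). NR1H2, the widely expressed LXR beta, had 58.4 and 55.0 TPM in wogonin 3 and 4, against 68.6 and 64.4 TPM in DMSO 1 and 2 (log2 fold change -0.09 ± 0.081, edgeR adjusted p = 0.34). NR1H3, LXR alpha, was the least abundant of the 31 genes and rose, at 10.5 and 9.06 TPM in wogonin 3 and 4, against 5.37 and 7.54 TPM in DMSO 1 and 2 (log2 fold change 0.74 ± 0.18, edgeR adjusted p = 0.002). That call rested on 123 and 113 exon reads in wogonin 3 and 4, against 65 and 93 in DMSO 1 and 2, and was lost without DMSO 1 (0.51, edgeR adjusted p = 0.054). NR1H3 overlaps ACP2 on the opposite strand, which had 295 and 306 exon reads in wogonin 3 and 4, against 592 and 601 in DMSO 1 and 2.

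Intron reads, which come largely from RNA that is not yet spliced, gave another readout of the same libraries. Of 29 genes with enough intron reads, 10 were higher and 1 was lower, or 34.5% higher, where 11.3% of the 10495 genes tested were higher, 8.82% were lower and 20.1% were called in either direction. The 10 were ACAT2, HMGCS1, MVK, MVD, IDI1, FDPS, LSS, EBP, DHCR7 and INSIG1, and the 1 was STARD4. DHCR7 had 113 and 114 intron reads in wogonin 3 and 4, against 26 and 30 in DMSO 1 and 2 (log2 fold change 1.74 ± 0.32 SE, edgeR adjusted p = 0.0015). LSS had 261 and 223 in wogonin 3 and 4, against 63 and 78 in DMSO 1 and 2 (1.49 ± 0.26, edgeR adjusted p = 0.0012). STARD4 had 27 and 20 in wogonin 3 and 4, against 59 and 61 in DMSO 1 and 2 (-1.66 ± 0.31, edgeR adjusted p = 0.0020). Opposite-strand genes overlap ACAT2, MVK, FDPS, DHCR7 and STARD4. RP11-660L16.2, over DHCR7, had 61 and 68 exon reads in wogonin 3 and 4, against 35 and 35 in DMSO 1 and 2. RUSC1-AS1, over FDPS, had 100 and 80 in wogonin 3 and 4, against 56 and 56 in DMSO 1 and 2. The strand setting is not given, and the part of such genes in the intron counts was not tested.

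EBP showed the largest intron rise, with 34 and 37 reads in wogonin 3 and 4, against 8 and 4 in DMSO 1 and 2 (log2 fold change 2.26 ± 0.48 SE, edgeR adjusted p = 0.0042). That call was lost without DMSO 2 (1.83), as was the LSS call without DMSO 1 (1.36). HMGCS1, MVK, MVD and FDPS lost theirs without DMSO 1 and also without DMSO 2. IDI1 lost its call without DMSO 1 and INSIG1 without DMSO 2, and MVK and MVD also lost theirs without wogonin 4. The higher calls of ACAT2 and DHCR7 held without each library in turn. SQLE, whose exon reads rose, had 39 and 29 intron reads in wogonin 3 and 4, against 20 and 21 in DMSO 1 and 2. This difference missed the threshold (0.42 ± 0.35, edgeR adjusted p = 0.43). FDFT1, SREBF2 and SCAP did not pass in introns either (edgeR adjusted p = 0.59, 0.23 and 0.56). SREBF2 had 464 and 230 intron reads in wogonin 3 and 4, against 211 and 188 in DMSO 1 and 2. Its log2 fold change in introns was 0.44 with all libraries and 0.59 without wogonin 4. HSD17B7 missed the threshold with all libraries (1.03 ± 0.37, edgeR adjusted p = 0.060) and was at 1.04 without wogonin 3 and 0.98 without wogonin 4. Counts were small. Without DMSO 1, 4 of the 31 genes were higher and 1 lower, beside 386 and 267 of all genes, against 1187 and 926 with all libraries. Without DMSO 2 these were 4 and 1, beside 440 and 290 of all genes. Without wogonin 3, the library with the highest intron share, 11 were higher and 3 lower, the lower ones being STARD4, GGPS1 (-1.30) and MBTPS2 (-1.15), beside 1895 and 1677 of all genes. Without wogonin 4, 10 were higher and 2 lower, the lower ones being STARD4 and GGPS1 (-0.69), beside 2046 and 1962 of all genes. The lower call of STARD4 was lost when intron reads were scaled by the exon library sizes and factors (-1.19), a setting in which the median of all genes stood at 0.53.

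**Figure D4:**
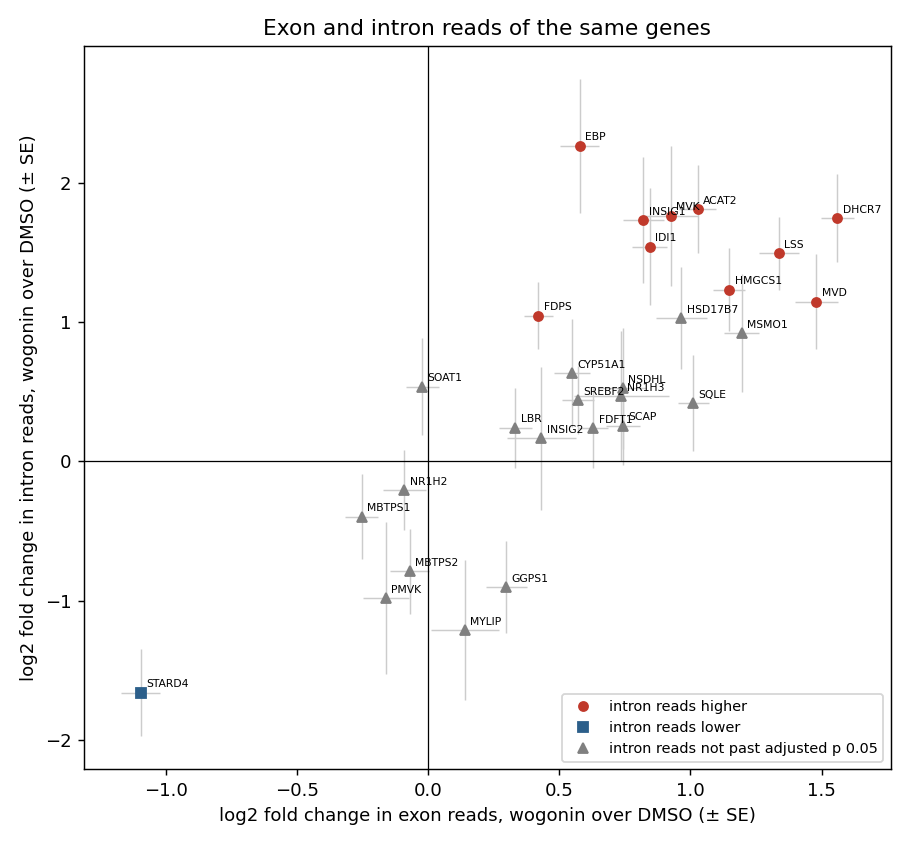
Log2 fold change in intron reads against that in exon reads, wogonin over DMSO, with standard errors, for the 29 genes tested in both; circles mark intron reads that were higher, the square the one that was lower, and triangles those that did not pass. STARD4 lies alone at the lower left, and EBP, at 2.26 in introns and 0.58 in exons, lies highest.

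Over all 31 genes, reads that cross exon junctions gave 22 higher and 4 lower calls, where 27.6% of the 11251 genes tested were higher, 28.0% were lower and 55.7% were called in either direction. The additional lower gene was PMVK, and INSIG2 was no longer called higher. Values were close to those of all exon reads for MVD (1.48), DHCR7 (1.58), SQLE (1.03) and STARD4 (-0.96). They lay further apart for GGPS1, at 0.52 in junction reads and 0.30 in all exon reads, and for HSD17B7, at 0.73 in junction reads and 0.97 in all exon reads.

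Of 3 related gene lists, that of sterol sensing and protein turnover at the endoplasmic reticulum had 9 higher and 3 lower members of 14 (64.3% and 21.4%, beside 32.3% and 31.5% of all genes), with a median log2 fold change of 0.31. RNF145, a sterol-responsive ubiquitin ligase, had 194 and 194 TPM in wogonin 3 and 4, against 99.1 and 101 TPM in DMSO 1 and 2 (log2 fold change 1.09 ± 0.062, edgeR adjusted p = 4.2e-10). TMEM33, a membrane protein of the endoplasmic reticulum, rose at a log2 fold change of 0.91, and so did the ubiquitin-conjugating enzyme UBE2G2 at 0.54. PAQR3, a Golgi protein that binds SCAP, was lower at a log2 fold change of -0.77. The sterol-sensing ubiquitin ligase RNF139 fell by 0.23 on the log2 scale (edgeR adjusted p = 0.049), a call that was lost with DESeq2, limma-voom, the non-robust fit and without DMSO 2 or wogonin 3, and its value in junction reads was 0.03.

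In the list of uptake, transport and ester turnover, 8 of 23 tested members were higher and 5 were lower. That is 34.8% and 21.7%, beside 32.3% and 31.5% of all genes, so the higher share was near that of all genes. The median was 0.04, and ABCG1 and SOAT2 had too few reads. LRP8, a receptor of the lipoprotein receptor family, had 71.1 and 66.7 TPM in wogonin 3 and 4, against 22.4 and 19.2 TPM in DMSO 1 and 2 (log2 fold change 1.87 ± 0.086, edgeR adjusted p = 4.8e-11). TMEM97, a sterol-regulated membrane protein that binds NPC1, had 318 and 302 TPM in wogonin 3 and 4, against 117 and 119 TPM in DMSO 1 and 2 (log2 fold change 1.53 ± 0.061, edgeR adjusted p = 1.3e-11). NPC1, which exports cholesterol from lysosomes, had 75.4 and 68.8 TPM in wogonin 3 and 4, against 32.0 and 30.6 TPM in DMSO 1 and 2 (log2 fold change 1.34 ± 0.067, edgeR adjusted p = 1.1e-10). These 3 lay as high in fold as the leading synthesis enzymes. The lipid transfer gene VPS13A fell by 0.43 on the log2 scale. GRAMD1B, a sterol transfer protein, and the sterol-binding protein STARD5 fell by 1.11 and 1.20 on the log2 scale, at no more than 43 and 27 reads in any library. The GRAMD1B call was lost with DESeq2, in junction reads and without DMSO 2 or wogonin 3. That of STARD5 was lost with DESeq2, in both kinds of uniquely placed reads and without DMSO 1, DMSO 2 or wogonin 4.

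Among 20 genes that use isoprenoids, 11 were higher and 7 were lower (55.0% and 35%, beside 32.3% and 31.5% of all genes), with a median of 0.24. Genes of coenzyme Q side chain synthesis went both ways. PDSS1, a subunit of the enzyme that builds the chain, had 48.6 and 47.7 TPM in wogonin 3 and 4, against 21.3 and 19.8 TPM in DMSO 1 and 2 (log2 fold change 1.37 ± 0.13, edgeR adjusted p = 1.2e-07), while COQ2, which attaches the chain to the ring, had 14.6 and 13.9 TPM in wogonin 3 and 4, against 46.0 and 44.3 TPM in DMSO 1 and 2 (log2 fold change -1.52 ± 0.12, edgeR adjusted p = 1.9e-08). ICMT, which methylates prenylated proteins, rose at a log2 fold change of 0.55, as did DHDDS, of dolichol synthesis, at 0.79, and both calls were lost in junction reads (0.18 and 0.20). The Rab prenylation genes CHML and RABGGTA fell by 0.88 and 0.61 on the log2 scale. None of the CHML exon reads was uniquely placed, so its value rests wholly on reads that also match elsewhere. Its exon sequence fills the whole gene, so it could have no junction reads to set beside this value. No list was compared with other genes beyond the shares given.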

How the data were processed

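Total RNA of 4 A2780 libraries was sequenced, 2 per group, with libraries made with a SMARTER kit per the labels' protocols. The authors deposited 1 table per library with raw counts of reads per gene in exons, introns and across exon junctions, in total and uniquely placed, per the file headers. They also deposited TPM and RPKM values and, per the file headers, the fraction of reads that are unique or intronic. TPM matched total exon reads over exon length and was used for levels. RPKM and the deposited fractions were not used. Both GRCh37 and hg19 stand as builds in the submitters' processing notes. No source used here gives the aligner, the counter, the annotation release or the strand setting.

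For the total exon counts, genes that passed filterByExpr were fitted by edgeR 4.0.16 (R 4.3.3) with TMM factors and treatment as the single term, using its quasi-likelihood test with the robust option. Tests were 2-sided, and p-values were adjusted by Benjamini-Hochberg over all genes at a threshold of 0.05. Each ± beside a fold change is its standard error on the log2 scale. Intron counts of genes with exons were fitted the same way. With 2 libraries a group the spread is shared across genes, and its common coefficient of variation was 5.60% for exon and 19.0% for intron counts. A count of 0 allows a level of up to 3 reads, or 0.253 to 0.273 CPM, counting error only. Alternatives were other scalings and filters, DESeq2 1.42.0, limma-voom (limma 3.58.1), a non-robust fit, other count columns, a minimum change of 1 log2 unit, and fits without each library in turn. Code was tested on simulated data. All 31 genes are described. Up to 3 genes in each direction with the smallest adjusted p are named from each of 3 related lists, except 1 gene that is not reported here. The members and lists were chosen with earlier results of these data known. Overlapping genes are those with a mean of at least 10 exon reads.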

Additional observations from a re-analysis of the deposited data

How the results depend on the processing

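Of the 31 genes, 24 kept their direction and their side of the threshold in all 16 alternatives other than the size threshold, 21 of them called genes. With an absolute log2 fold change of at least 1, 849 and 1337 of all genes and 7 and 1 of the 31 were called higher and lower. The median of the 31 genes was 0.54 with library totals alone and with upper-quartile factors, 0.55 in total and 0.56 in uniquely placed gene reads, and 0.61 to 0.66 without each library in turn. Calls of the 31 without each library ranged from 21 to 23 higher and from 2 to 3 lower, the lowest counts being those without DMSO 1 and, for lower calls, also without wogonin 3. Over all genes the same fits called 3613 to 4111 higher and 3516 to 4055 lower, against 4343 and 4234 with all libraries. MBTPS2 was at 0.0213 and RNF139 at 0.0285 in junction reads, opposite to their reported sign. Without 1 library, the lone library of its group is assumed to vary like the other group. The cause of these changes was not tested.

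Intron counts depended more on the setting. Scaled by the exon library sizes and factors, 143 of all genes and 0 of the 31 were lower by edgeR at the adjusted threshold, while 1 of them, STARD4, had an unadjusted p under 0.05. In that setting MBTPS1 and NR1H2 were at 0.10 and 0.26, opposite to their reported sign. Without each library in turn, 386 to 2046 of all genes were higher and 267 to 1962 lower, with 4 to 11 of the 31 higher and 1 to 3 lower. In intron reads INSIG2 ranged from -0.273 to 0.764 without each library in turn, below 0 without DMSO 2 (-0.27) and without wogonin 4 (-0.0973), and SCAP ranged from -0.038 to 0.489, below 0 without wogonin 4. Intron depth, under 10% of reads, limits these values. No paired analysis was possible because the groups share no replicate numbers.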
